A study of Mus musculus with 4 samples.

Results

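The genes described here are the core of the transforming growth factor beta (TGF-beta) pathway in hematopoietic stem and progenitor cells: the ligand gene *Tgfb1*, the receptor genes *Tgfbr1* and *Tgfbr2*, the signal-carrying *Smad2*, *Smad3* and *Smad4*, the inhibitor *Smad7*, and the nuclear repressors *Ski*, *Skil* and *Tgif1*. They were taken by gene symbol and not by a cut on their values, though with earlier results of these data known, and all 10 were among the 18598 genes listed and among the 14858 genes tested. The cells were LSK cells, bone marrow cells that lack lineage markers and carry SCA-1 and c-KIT, sorted from C57BL/6 mice about 3 months old. The control group comprised 2 libraries from *Bptf* f/f mice. The *Bptf* cKO group (labelled *Bptf* -/-) comprised 2 libraries from *Bptf* f/f;*Mx1*-cre littermates, in which cre deletes a floxed exon of *Bptf*. All mice received pIpC, an inducer of interferon that switches on the *Mx1* promoter driving cre, and cells were taken 10 days after induction. Each library was made from the pooled cells of 5 mice, so that differences between single mice were not measured. The controls described for these libraries carry no cre, so the deletion of *Bptf* and the presence of cre cannot be told apart. In bulk RNA of sorted cells, fewer cells of one type and less RNA per cell cannot be told apart either.

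TGF-beta binds the type II receptor encoded by *Tgfbr2*, which recruits and phosphorylates the type I receptor encoded by *Tgfbr1*, and the type I receptor in turn phosphorylates SMAD2 and SMAD3. These join SMAD4 and move to the nucleus to regulate transcription, while SMAD7 blocks the active receptor and is itself induced by the signal. SKI, SNON (the product of *Skil*) and TGIF1 hold SMAD target genes in check. In the bone marrow TGF-beta is a well-known signal for quiescence of hematopoietic stem cells, and much of it is made in a latent form that has to be activated outside the cell.

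The libraries held between 14091054 and 30134742 reads on the listed genes, and the deposited values are these reads divided by one size factor per library, here called normalized counts. *Bptf*, the gene with the deleted exon, had 5520 and 5850.1 normalized counts in control libraries 1 and 2. It had 3398 and 3320 in *Bptf* cKO libraries 1 and 2, a log2 difference of -0.76 (standard error 0.090, limma adjusted p = 0.0439). The paper reports that reads on the deleted exon were lacking in *Bptf* cKO cells and that the remaining transcript is out of frame. Counts over the whole gene include the other exons, so they do not measure how complete the deletion was. Leaving out control 1, control 2, *Bptf* cKO 1 or *Bptf* cKO 2 gave *Bptf* limma adjusted p values of 0.0619, 0.0917, 0.221 and 0.237. Of the 8 genes that mark LSK cells and their subsets all were detected, with *Kit* between 13634 and 17051 normalized counts. The 8 summed to 53336 and 43175 in control and to 41015 and 36944 in *Bptf* cKO libraries. Log2 differences were -0.010 for *Kit*, 0.091 for *Ly6a* and -0.21 for *Cd34*. They were -0.76 for *Flt3*, -0.80 for *Slamf1*, -0.81 for *Procr* and -0.69 for *Cd48*, each at a limma adjusted p over 0.05. *Xist*, transcribed from the inactive X chromosome in female cells, had at most 3.25 normalized counts in both libraries numbered 1 and at least 11843 in both numbered 2. The pools numbered 2 thus held female cells and those numbered 1 nearly none, a split by replicate number and not by genotype. Among markers of other cells, the 8 listed erythroid genes summed to 1068 and 1079.7 in control and to 212 and 356 in *Bptf* cKO libraries. The 8 myeloid genes ranged more widely, with sums of 56772 and 11319 in control and 43646 and 37095 in *Bptf* cKO libraries. Control 2 was thus far below every other library in this sum. The 6 listed megakaryocyte genes summed to 6692 and 5461 in control and to 4850.4 and 5012 in *Bptf* cKO libraries. For the 5 listed lymphoid genes the sums were 10749 and 10727 in control and 5857 and 11423 in *Bptf* cKO, and *Cd3e*, *Cd3d* and *Cd8a* were not among the genes analysed. The 4 listed stromal genes summed to 1963 and 579 in control and 1595 and 813 in *Bptf* cKO, and the 6 endothelial genes to 1069.7 and 1470.5 against 957 and 1126. In the erythroid list 1 of 7 tested genes, *Epor*, fell, beside 0.37% of all genes called lower. In the other lists of other cell types 0 genes passed the test. From these lists *Gp6* (megakaryocyte) and *Lepr*, *Col3a1* and *Adipoq* (stroma) were also not among the genes analysed. The 18 immediate-early genes, which respond to stimulation and handling of cells, summed to 88118 and 214238 in control and to 32393 and 36261 in *Bptf* cKO libraries. Of 17 tested, 1 fell at a limma adjusted p under 0.05, *Zfp36*, beside the same 0.37% of all genes. There were 12 lower and 0 higher at an unadjusted p under 0.05, beside 8.96% and 6.79% of all genes. The paper reports lower expression of AP1 genes such as *Fos* and *Jun* in *Bptf* cKO LSK cells.

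Genes averaging 10 normalized counts or more over the 4 libraries were compared between genotypes on the log2 scale of the normalized count plus 1 with limma, and p-values were adjusted over all of them. At an adjusted p under 0.05 the number of TGF-beta core genes called was 0 of 10, beside 110 of 14858 genes tested (0.74%). At an unadjusted p under 0.05 there were 3 of the 10, namely *Skil*, *Smad7* and *Smad3*, beside 15.7% of all genes tested. The median log2 difference of the 10 genes was 0.089, beside 0.0011 over all genes tested. On recovered reads, without a replicate term, edgeR and DESeq2 called 0 of the 10 as well, beside 0.633% and 5.44% of all genes. With the replicate number added as a block, 3 of the 10 passed in limma and in edgeR (*Tgfb1* and *Skil* higher, *Smad7* lower), beside 14.4% and 14.3% of all genes, and no source states that the numbers mark shared animals or days, although *Xist* split the libraries by number. For 1 gene on its own, the smallest p that an exact two-sided permutation of 2 against 2 libraries can give is 0.333. The lowest coverage among the 10 was 209 reads, for *Smad7* in *Bptf* cKO library 2.

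**Figure D1:**
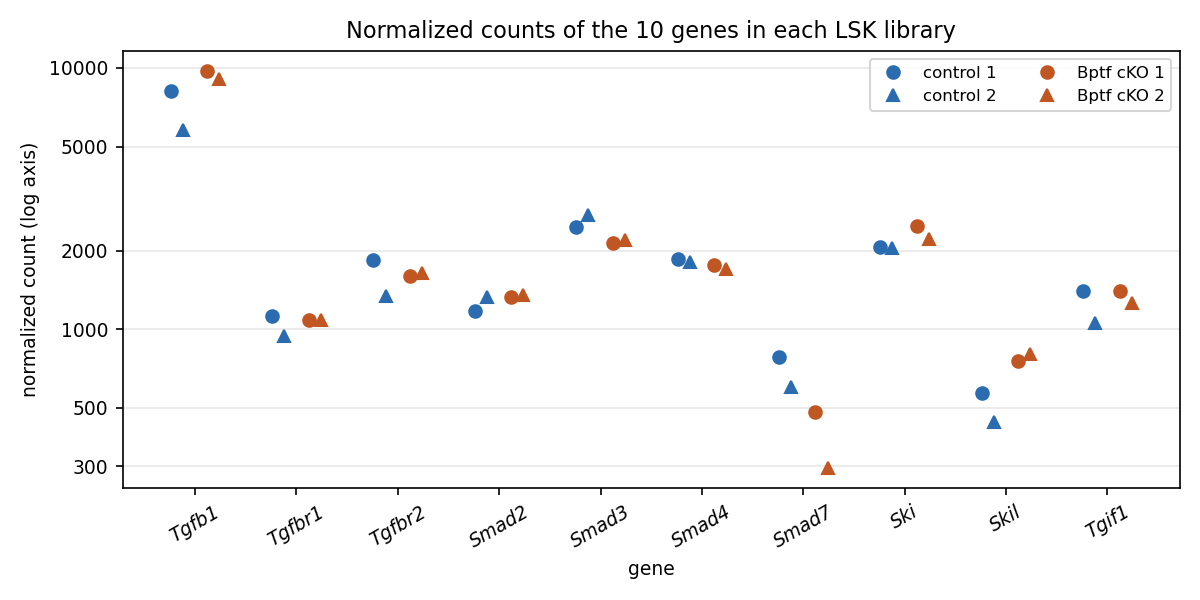
Normalized counts (log axis) of the 10 TGF-beta core genes in each library, blue for control and orange for *Bptf* cKO, with circles for replicate 1 and triangles for replicate 2. *Tgfb1* sits highest, between 5779 and 9756, and the orange points of *Smad7* (481 and 295) lie below its blue ones while those of *Skil* (755 and 807) lie above.

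*Tgfb1*, which encodes the main TGF-beta ligand of blood and bone marrow, is annotated on the plus strand of chromosome 7, bases 25687002 to 25705077 (positions here are those of GENCODE vM21 on GRCm38). It had 8179.9 and 5779 normalized counts in control and 9756 and 9027 in *Bptf* cKO libraries. Both *Bptf* cKO libraries were above both controls, and control 2 was well below the other 3 libraries. The log2 difference was 0.45 (standard error 0.18, 95% interval -0.0043 to 0.90, limma adjusted p = 0.32), a mean 1.36-fold higher in *Bptf* cKO that did not pass the test. Without control 2 it was 0.20 and without control 1 it was 0.70 on the log2 scale. Between libraries of the same number the difference was 0.25 for replicate 1 and 0.64 for replicate 2.

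The start of the *Tgfb1* gene, shown here because it was the most abundant member per kilobase and the one with the largest positive difference among those with a reference promoter sequence, is printed with that of *Smad3*, the member of that group with the lowest difference. RefSeq (GRCm38.p6) gave sequences for 6 of the 10 genes, *Tgfb1*, *Tgfbr1*, *Tgfbr2*, *Smad3*, *Ski* and *Tgif1*. The 250 bases before the start are given 5′ to 3′ on the strand of the gene, chr7:25686752-25687001 on the plus strand for *Tgfb1* and chr9:63757995-63758244 on the minus strand for *Smad3*, with capitals marking GC boxes (GGGCGG, or CCGCCC on the other strand).
Tgfb1: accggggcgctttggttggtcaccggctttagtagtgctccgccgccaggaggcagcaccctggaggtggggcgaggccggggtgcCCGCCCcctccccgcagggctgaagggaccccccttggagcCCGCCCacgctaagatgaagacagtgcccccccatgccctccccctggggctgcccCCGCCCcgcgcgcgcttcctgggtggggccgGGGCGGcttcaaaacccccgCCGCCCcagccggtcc
Smad3: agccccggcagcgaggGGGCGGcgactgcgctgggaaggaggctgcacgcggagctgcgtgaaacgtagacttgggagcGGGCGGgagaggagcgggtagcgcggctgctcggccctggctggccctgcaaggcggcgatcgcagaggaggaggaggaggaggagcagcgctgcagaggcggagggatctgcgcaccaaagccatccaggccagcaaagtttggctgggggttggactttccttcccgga
The *Tgfb1* window held 5 GC boxes and 75.2% G and C, and the *Smad3* window held 2 and 69.2%, while 32.7% of the 32851 promoter windows searched held at least 1 GC box. The Smad box (CAGAC, or GTCTG on the other strand), the short element that SMAD3 and SMAD4 bind, and the AP1 site (TGANTCA) each had 0 matches in both windows, beside 42.2% and 6.75% of all windows with at least 1. A match or its absence describes these letters in this window only, and promoter activity was not measured in the data used here.

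For neither receptor gene did the genotypes separate. *Tgfbr1*, for the type I receptor kinase (chromosome 4, 47353222 to 47414931), had 1128 and 944 normalized counts in control and 1086 and 1084 in *Bptf* cKO libraries. Its log2 difference was 0.072 (95% interval -0.26 to 0.40, limma adjusted p = 0.851). *Tgfbr2*, for the type II receptor kinase that binds the ligand (chromosome 9, 116084293 to 116175360), had 1846 and 1342 in control and 1603 and 1647 in *Bptf* cKO libraries. Its log2 difference was 0.046 (95% interval -0.39 to 0.48, limma adjusted p = 0.938). For both genes the *Bptf* cKO libraries lay between the 2 controls, and without control 2 the log2 difference changed sign, to -0.056 for *Tgfbr1* and -0.18 for *Tgfbr2*. The intervals include values up to 1.32-fold higher for *Tgfbr1* and 1.39-fold higher for *Tgfbr2*.

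Of the genes for SMAD proteins that carry the signal, *Smad3* had the largest difference, with lower values in *Bptf* cKO cells. *Smad3* (chromosome 9, 63646767 to 63757994) had 2472 and 2739 normalized counts in control and 2146 and 2193 in *Bptf* cKO libraries, with no overlap between the groups. The log2 difference was -0.26 (standard error 0.10, 95% interval -0.52 to -0.0073, limma unadjusted p = 0.0456 and adjusted p = 0.305). *Smad2*, whose product is the other SMAD that the TGF-beta receptor phosphorylates (chromosome 18, 76241580 to 76310963), had 1172 and 1328 in control and 1329.7 and 1356 in *Bptf* cKO libraries. The groups of *Smad2* were separated by less than 2 normalized counts, and the log2 difference was 0.11 (95% interval -0.18 to 0.39, limma adjusted p = 0.722), which became 0.016 without control 1 and 0.20 without control 2. *Smad4*, the partner shared with the bone morphogenetic protein (BMP) branch (chromosome 18, 73639009 to 73703780), had 1860.3 and 1816 in control and 1767 and 1706 in *Bptf* cKO libraries. It had the narrowest interval of the 10 genes, -0.32 to 0.16 on the log2 scale around a difference of -0.082 (limma adjusted p = 0.746). Per kilobase of exon, *Smad3* was 3.34 and 3.27 times as abundant as *Smad2* in control libraries and 2.56 and 2.56 times in *Bptf* cKO libraries, a pair of genes that was set side by side after the values were seen. Within each genotype this ratio was closer between libraries than it was between genotypes, and it was not tested.

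*Smad7*, the inhibitory SMAD, had the largest difference of the 10 genes in either direction. It lies on chromosome 18 from 75367529 to 75395935 and had 781 and 603 normalized counts in control and 481 and 295 in *Bptf* cKO libraries. Both *Bptf* cKO libraries were below both controls, and they differed from each other by 1.63-fold, more than for any other member. The log2 difference was -0.86 (standard error 0.28, 95% interval -1.56 to -0.17), with a limma unadjusted p of 0.0241 and an adjusted p of 0.245. In linear terms the control mean was 1.82-fold the *Bptf* cKO mean on this scale, and it ranked 971 among 14858 genes when ordered from the most negative difference. Leaving out *Bptf* cKO 2 gave -0.51 and leaving out *Bptf* cKO 1 gave -1.22. The 18 immediate-early genes had their lower sums in the same 2 libraries, and 13 of 17 tested lay below both controls, beside 23.8% of all genes. Their part in the *Smad7* values was not tested.

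Among the nuclear repressors, *Skil* had the larger difference. *Skil* (chromosome 3, 31095058 to 31122577), whose product SNON is degraded when TGF-beta signals and whose transcription is then induced, had 573 and 444 normalized counts in control and 755 and 807 in *Bptf* cKO libraries. Both *Bptf* cKO libraries were above both controls, a log2 difference of 0.63 (standard error 0.17, 95% interval 0.21 to 1.05, limma unadjusted p = 0.0118 and adjusted p = 0.185), or 1.55-fold. It ranked 965 of 14858 when ordered from the most positive difference, and the difference ran from 0.45 to 0.81 when 1 library was left out. *Ski*, the related corepressor first known as an oncogene (chromosome 4, 155154075 to 155222592), had 2072 and 2042 in control and 2493 and 2218 in *Bptf* cKO libraries. The *Bptf* cKO libraries of *Ski* were again the higher ones, with a log2 difference of 0.19 (95% interval -0.071 to 0.46, limma adjusted p = 0.453). *Tgif1*, a homeodomain repressor that competes with coactivators for SMADs (chromosome 17, 70844205 to 70853546), had 1396 and 1059 in control and 1395 and 1257 in *Bptf* cKO libraries. Its groups overlapped, with a log2 difference of 0.12 (95% interval -0.29 to 0.54, limma adjusted p = 0.788) that became -0.076 without control 2.

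**Figure D2:**
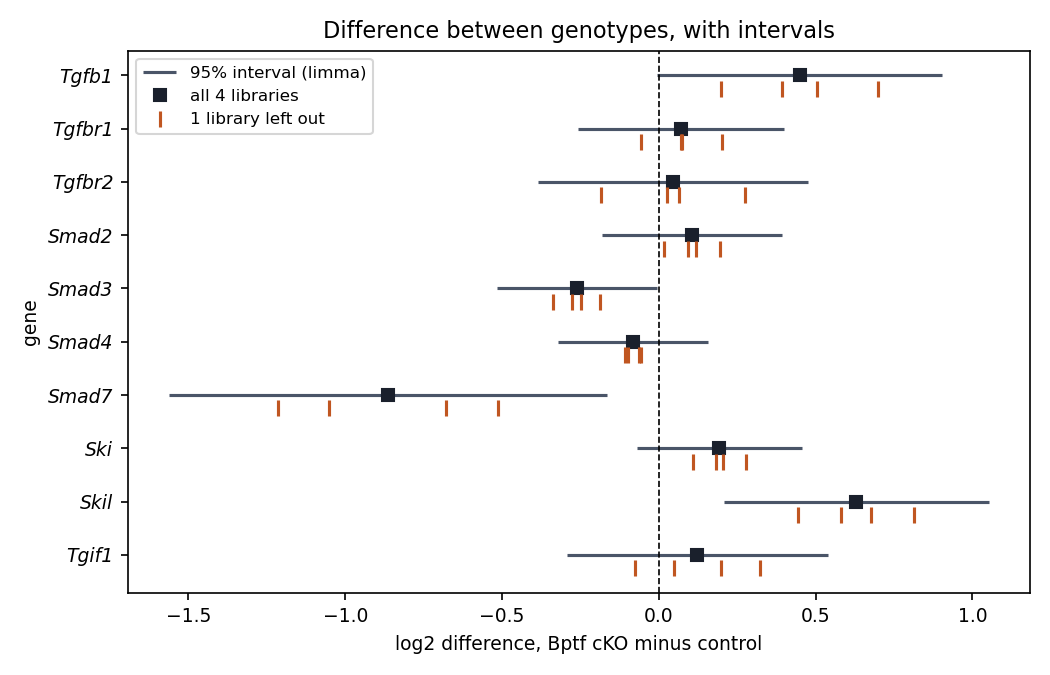
Log2 difference of *Bptf* cKO minus control for each of the 10 genes, with squares for all 4 libraries, horizontal lines for the limma 95% interval and orange ticks for the value with 1 library left out. The intervals of *Smad7* (-1.56 to -0.17), *Skil* (0.21 to 1.05) and *Smad3* (-0.52 to -0.0073) do not include 0, and the ticks of *Tgfbr1*, *Tgfbr2* and *Tgif1* fall on both sides of it.

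In all, the groups did not overlap for 7 of the 10 genes, 4 of them higher (*Tgfb1*, *Smad2*, *Ski*, *Skil*) and 3 lower (*Smad3*, *Smad4*, *Smad7*) in *Bptf* cKO cells. Over all genes tested the groups did not overlap for 47% of them, 23.2% higher and 23.8% lower. The 3 genes that overlapped, *Tgfbr1*, *Tgfbr2* and *Tgif1*, were those in which control 2 was the lowest and control 1 the highest of the 4 libraries. Control 1 was also above control 2 in *Tgfb1*, *Smad4*, *Smad7*, *Ski* and *Skil*, and below it in *Smad2* and *Smad3*.

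Levels were compared between genes as normalized counts per kilobase, using the summed length of all annotated exons of a gene in GENCODE vM21. *Tgfb1* was far above the rest, at 1384 ± 337 per kilobase (SD, n = 2 libraries) in control and 1863 ± 102 in *Bptf* cKO cells. *Smad4* and *Smad3* came next in control cells at 495 ± 8.51 and 470.1 ± 34.0 (SD, n = 2), which did not differ beyond their spread, and *Ski* followed at 369.8 ± 3.86. *Tgif1*, *Tgfbr2*, *Tgfbr1*, *Smad7* and *Smad2* formed a run from 218 to 142 per kilobase in which each overlapped its neighbour. *Skil* was lowest, at 52.4 ± 9.43 in control and 80.5 ± 3.83 in *Bptf* cKO cells. The order in *Bptf* cKO cells differed in 2 places, with *Ski* above *Smad3* and *Smad2* above *Smad7*, which stood at 85.8 ± 29.1 per kilobase.

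**Figure D3:**
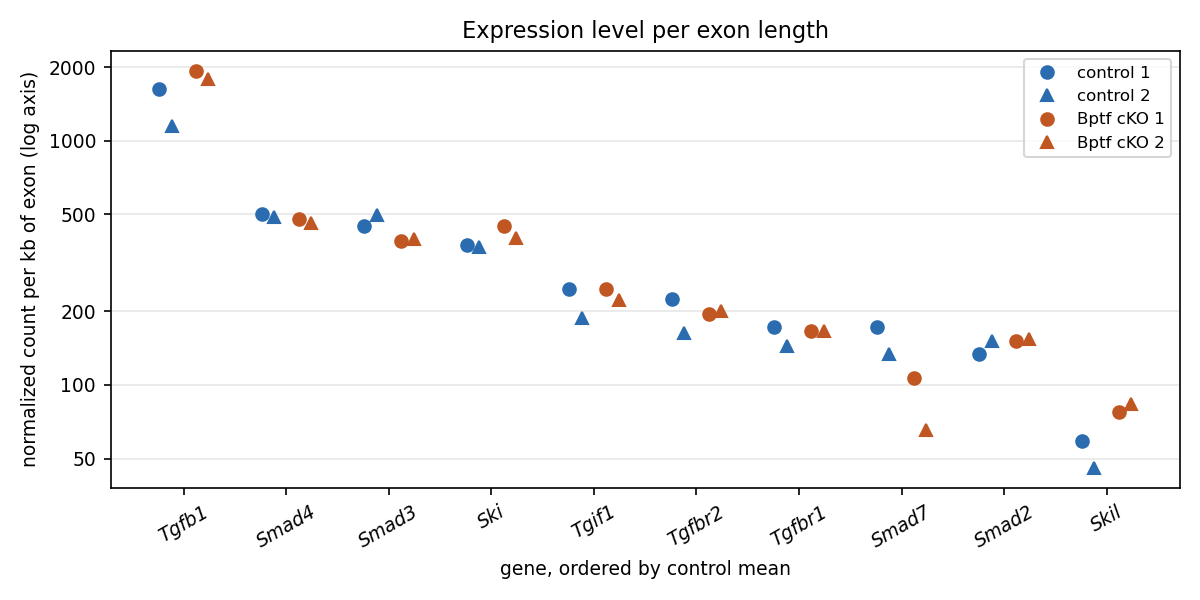
Normalized counts per kilobase of exon (log axis) in each library, with genes ordered from left to right by their control mean, blue for control and orange for *Bptf* cKO. *Tgfb1* stands apart at the top and *Skil* at the bottom, and the orange points of *Smad7* lie below the run of receptor and Smad genes, near those of *Skil*.

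The rest of the pathway was described with a list of 97 further genes for ligands, latency, receptors, other SMADs, their modifiers and partners, of which 76 were tested. In this list 0 genes rose and 1 fell at a limma adjusted p under 0.05, beside 0.37% of all genes in each direction. The gene that fell was *Bgn*, encoding biglycan, a matrix proteoglycan that can bind TGF-beta, with 389 and 532 normalized counts in control and 35.7 and 45.2 in *Bptf* cKO libraries. Its log2 difference was -3.47 (standard error 0.27, limma adjusted p = 0.0204), and leaving out control 2, *Bptf* cKO 1 or *Bptf* cKO 2 gave adjusted p values of 0.0531, 0.106 and 0.0584. At an unadjusted p under 0.05 there were 5 genes higher and 9 lower among the 76, beside 6.79% and 8.96% of all genes, and the list's median log2 difference was -0.041.

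Of 8 tested genes that hold or release latent TGF-beta 0 passed the test. At an unadjusted p under 0.05 there were 2 higher and 1 lower, beside 6.79% and 8.96% of all genes. *Ltbp4*, for a latent TGF-beta binding protein of the matrix, had 187 and 239.8 normalized counts in control and 656 and 507 in *Bptf* cKO libraries, a log2 difference of 1.44 (standard error 0.22, limma adjusted p = 0.066). *Fbn1*, for fibrillin-1, to which such complexes are tethered, had 102 and 144 in control and 203 and 319 in *Bptf* cKO libraries (log2 difference 1.06, limma adjusted p = 0.216). *Thbs1*, for thrombospondin-1, an activator of latent TGF-beta, had 113 and 202.4 in control and 32.5 and 55.0 in *Bptf* cKO libraries (log2 difference -1.81, limma adjusted p = 0.148). The groups of each of these 3 genes were separate. They were named for an unadjusted p under 0.05, which makes separate groups likely, so this is not a further result. Over all genes 23.2% were separate and higher, and 23.8% separate and lower. The other members, *Nrros* among them, had an unadjusted p over 0.05. *Nrros*, whose product anchors latent TGF-beta on myeloid cells, had 4959 and 3752 in control and 5246 and 4708 in *Bptf* cKO libraries, and its groups overlapped.

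Of the other TGF-beta superfamily ligands *Gdf15*, a stress-induced cytokine, had the largest difference, from 17.1 and 33.3 normalized counts in control to 209 and 186 in *Bptf* cKO libraries. Its log2 difference of 2.99 had a limma adjusted p of 0.0555. DESeq2 on the recovered reads called 2 genes higher and 2 lower of the 76 tested in the pathway list, beside 5.44% of all genes. *Gdf15* was among them (DESeq2 adjusted p = 3.2e-08), as were *Ltbp4* (8.46e-06) and *Thbs1* (0.0107). It also passed in limma without control 2, at an adjusted p of 0.0376.

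The other receptors and SMADs were given in full because they share partners with the core genes. *Eng*, the coreceptor endoglin, had 5254 and 5574 normalized counts in control and 3939 and 4703 in *Bptf* cKO libraries (log2 difference -0.33, limma adjusted p = 0.281). *Acvr1b*, a type I receptor for activin, had 2323 and 1841 in control and 2679 and 2657 in *Bptf* cKO libraries (log2 difference 0.37, limma adjusted p = 0.295). *Acvr2b*, a type II activin receptor, had 146 and 99.8 in control and 78.0 and 43.7 in *Bptf* cKO libraries (log2 difference -1.03, limma adjusted p = 0.304). The log2 differences of *Tgfbr3* (-0.10), *Acvr1* (-0.35), *Acvr2a* (0.013) and *Bmpr1a* (-0.15) came with overlapping groups, and those of *Acvrl1* (-0.91) and *Bmpr2* (-0.26) with separate ones, none at an unadjusted p under 0.05. The 3 tested SMADs of the BMP branch had lower values in both *Bptf* cKO libraries, as had 23.8% of all genes, and 0 passed the test. *Smad6*, the inhibitory SMAD of that branch, had 123 and 155 in control and 83.8 and 77.6 in *Bptf* cKO libraries, a log2 difference of -0.77 (standard error 0.25, limma adjusted p = 0.252), close in size to that of *Smad7*. *Smad1* and *Smad5*, which carry BMP signals, had log2 differences of -0.27 and -0.14 (limma adjusted p = 0.366 and 0.536), and *Smad9* was not among the listed genes.

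Among genes that modify SMADs or bind them, of 13 ubiquitin ligases and proteases 2 had an unadjusted p under 0.05, both lower in *Bptf* cKO cells, beside 8.96% lower over all genes. *Smurf1*, for a ubiquitin ligase that works with SMAD7 on the receptor, had 698 and 741 normalized counts in control and 511 and 454 in *Bptf* cKO libraries (log2 difference -0.58, limma adjusted p = 0.146). *Usp11*, for a deubiquitinase of the type I receptor, had 2612 and 1847 in control and 1543 and 1213 in *Bptf* cKO libraries (log2 difference -0.68, limma adjusted p = 0.228). Of 18 SMAD partners and coregulators the one at an unadjusted p under 0.05 was *E2f5*, for a repressor E2F found in SMAD3 complexes, with 203 and 193 in control and 104 and 102 in *Bptf* cKO libraries (log2 difference -0.94, limma adjusted p = 0.132). The 6 kinases and phosphatases of SMADs had a median log2 difference of 0.018, and none had an unadjusted p under 0.05.

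Genes known to respond to TGF-beta in various cells, a list of 44 that includes *Smad7*, *Skil*, *Ski*, *Tgif1* and *Tgfb1*, were then described, with 37 tested. By limma 0 passed an adjusted p of 0.05 in either direction, while 2 were higher and 12 lower at an unadjusted p under 0.05, beside 6.79% and 8.96% of all genes. The groups did not overlap for 16 lower and 6 higher genes of the 37, beside 23.8% lower and 23.2% higher over all genes, and the list's median log2 difference was -0.19. DESeq2 on the recovered reads called 8 of them lower and 0 higher, beside 5.44% of all genes called in either direction by that test. The sums of immediate-early and erythroid markers were lower in the same libraries, and their part in this list was not tested.

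**Figure D4:**
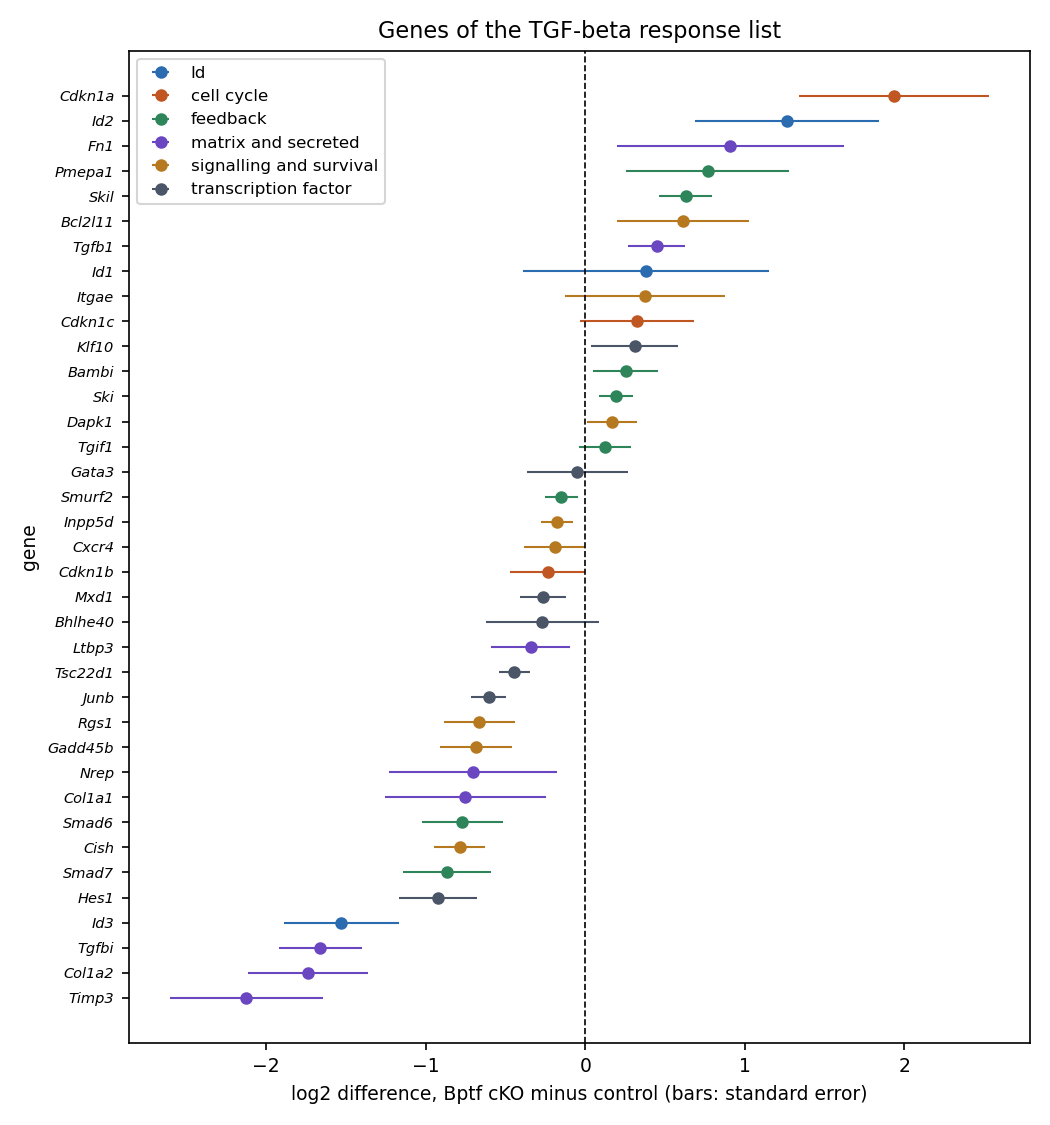
Log2 difference of *Bptf* cKO minus control for the 37 tested genes of the TGF-beta response list, ordered by size and coloured by role, with bars for the limma standard error. *Cdkn1a* is at the top (1.93) and *Timp3* at the bottom (-2.12), and *Skil* and *Smad7*, both feedback genes, lie on opposite sides of 0 at 0.63 and -0.86.

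*Tgfbi*, for a secreted matrix protein named for its induction by TGF-beta, had 588 and 826 normalized counts in control and 183 and 264 in *Bptf* cKO libraries, a log2 difference of -1.66 (standard error 0.26, limma adjusted p = 0.0726, DESeq2 adjusted p = 3.98e-06). *Tsc22d1*, for a transcription factor first found as a TGF-beta-stimulated clone, had 4877 and 5110.0 in control and 3839.7 and 3503 in *Bptf* cKO libraries (log2 difference -0.44, limma adjusted p = 0.13, DESeq2 adjusted p = 0.0182). *Cish*, for a cytokine signalling inhibitor, had 675 and 784 in control and 458 and 388 in *Bptf* cKO libraries (log2 difference -0.79, limma adjusted p = 0.113, DESeq2 adjusted p = 0.00864). In each of these 3 genes both *Bptf* cKO libraries lay below both controls. *Junb*, *Hes1*, *Gadd45b* and *Rgs1* had log2 differences of -0.61, -0.92, -0.68 and -0.66, also with separate groups, and limma adjusted p values of 0.0932, 0.182, 0.254 and 0.258. DESeq2 called *Junb* (adjusted p = 0.0024) and *Hes1* (0.0423) but not *Gadd45b* or *Rgs1*. All genes of this paragraph were named for an unadjusted p under 0.05, which makes separate groups likely. Over all genes 23.8% were separate and lower.

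Cell-cycle inhibitors through which TGF-beta can restrain proliferation had log2 differences of both signs, and 0 of 3 passed the test. *Cdkn1a* had 795 and 213 normalized counts in control and 1676 and 1486 in *Bptf* cKO libraries, a log2 difference of 1.93 (standard error 0.59, limma adjusted p = 0.228). The controls of *Cdkn1a* differed widely, and without control 1 its adjusted p in limma was 0.00867 at a log2 difference of 2.88. With the replicate block and all 4 libraries, *Cdkn1a* passed in limma (adjusted p = 0.000829) and in edgeR (adjusted p = 0.00119), beside 14.4% and 14.3% of all genes. DESeq2, and edgeR without the block, did not call *Cdkn1a*. *Cdkn1b* had 2543 and 1622 in control and 1898 and 1566 in *Bptf* cKO libraries (log2 difference -0.24, limma adjusted p = 0.70). *Cdkn1c*, prominent in quiescent stem cells, had 103 and 201 in control and 189 and 172 in *Bptf* cKO libraries (log2 difference 0.32, limma adjusted p = 0.731). The groups of *Cdkn1b* and *Cdkn1c* overlapped.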

How the data were processed

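RNA-seq of sorted LSK cells was analysed in 2 control and 2 *Bptf* cKO libraries. The submitters' processing notes name HISAT2, featureCounts and DESeq2 with GRCm38 (mm10), and settings are not given in the sources used here. The authors deposited a signal, the count of each gene over one size factor for the library, beside their own fold changes and p-values, which were not used. All values were whole multiples of the smallest non-zero value of their library (within 0.01 reads), so reads were recovered for 100% of values, and a listed gene had at least 11 reads in all. Depth was 24875746, 14091054, 30134742 and 14104526 reads in control 1, control 2, *Bptf* cKO 1 and *Bptf* cKO 2. Genes averaging 10 normalized counts or more were fitted as log2(value + 1) with limma 3.58.1 (R 4.3.3; mean-variance trend, genotype only, two-sided, Benjamini-Hochberg). edgeR 4.0.16 and DESeq2 1.42.0 on recovered reads were alternatives, with other pseudocounts, filters and scalings, a replicate block and each library left out. The fits were run on simulated counts with known changes, a fixed spread and no replicate effect. Such a run checks the code and cannot show how the fits behave at the spread of these libraries. Positions came from GENCODE vM21, where no exon of another gene overlapped an exon of the 10 genes, and promoters from RefSeq. Genes named beyond the 10 were the superfamily receptors and Smads, 3 cell-cycle inhibitors and, of the pathway and response lists, those at an unadjusted p under 0.05 that averaged 100 or more (up to 10 per direction), and *Timp3*, *Nrros* and the genes named from the marker lists were named after their values were seen. Members and lists were chosen with earlier results of these data known. No source states that replicates with one number share a litter or day, and the p-values measure the spread between pools. In each genotype the 2 pools differed in *Xist*, so without a block this spread includes any difference that goes with *Xist*. One result of the LSK marker list is not reported here.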

Additional observations from a re-analysis of the deposited data

How the results depend on the processing

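Of 150 values of the 10 core genes under other settings, 141 kept their direction and their side of the adjusted p of 0.05. The sign turned in 3, all without control 2 (*Tgfbr1* -0.056, *Tgfbr2* -0.18 and *Tgif1* -0.076), while without control 1 they were highest at 0.20, 0.28 and 0.32. The other 6 came with a replicate block, which passed *Tgfb1*, *Skil* and *Smad7* in limma (adjusted p = 0.0129, 0.0105 and 0.00164) and in edgeR. The core genes called were 2 higher and 1 lower with the block in limma and in edgeR, beside 14.4% and 14.3% of all genes. Same-numbered libraries deviated together (correlation 0.452 across 14858 genes). They also shared high or near-absent *Xist*, so the number went with female cells in the pool. Depth went with it as well, at 24875746 and 30134742 reads in the libraries numbered 1 and 14091054 and 14104526 in those numbered 2. No source says whether a number also marks a litter or day. All genes called were 896 higher and 1242 lower with the block in limma, 891 and 1229 in edgeR with the block (chosen after seeing the data), 318 and 490 with DESeq2, and 2 and 0 in limma without the trend. Without 1 library they ran from 1 to 78 higher and from 0 to 45 lower. The pathway list had 5 higher and 11 lower with the block in limma, 5 and 10 in edgeR, 2 and 2 with DESeq2, 1 higher with a pseudocount of 10 or no filter, 0 lower without the trend, and 0 to 1 in each direction without 1 library. The response list had 6 higher and 10 lower with the block in both tools, 8 lower with DESeq2, and 0 to 1 higher without 1 library. *Bptf* stayed lower but lost its call with medians recentred (-0.71), without the trend (-0.76) and in edgeR (-0.76), and ran from -0.80 to -0.72 without 1 library. Where a library is left out, the lone library is assumed to vary like the other group, and fewer samples remain. The cause of the other changes was not tested. Depth limits genes such as *Bmpr1a*, with 11 to 23 reads a library.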
